A study of Arabidopsis thaliana with 9 samples.

Results

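Rosettes of the pp2-a5 mutant of Arabidopsis thaliana were compared with rosettes of the wild-type accession Col-0 across all genes, in the 6 of 9 libraries of polyadenylated RNA that belong to these groups. Each group had 3 replicates: Col-0 (labelled WT), pp2-a5 (1 mutant line, whose columns are named SALK in the count table), and PP2-A5oe, a line that overexpresses the same gene and serves here as a second reference. All plants were under the treatment called control and were 3 weeks old, and the source is named rosette although the extraction text speaks of seedlings. The titles call the samples biological replicates, without saying whether they came from separate plants, pools or sowings, so p-values measure the spread between these samples. The promoter behind the overexpression and the mutant allele beyond the column name were not given in the labels. PP2-A5 is a protein with a TIR domain and a lectin domain; its own transcript was not analysed here.

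TIR domains are best known from plant immune receptors, where they act as enzymes whose products are sensed by the EDS1 family of proteins, with PAD4 or SAG101 as partners, and by helper receptors of the ADR1 and NRG1 type. Downstream of this module lie salicylic acid, the hormone of resistance to biotrophic pathogens, and the transcription of PR genes. Jasmonate and ethylene steer a largely separate branch towards wounding, herbivores and necrotrophic fungi, with plant defensins among its outputs, and the phosphate and iron status of the plant is tied to defence through shared regulators.

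Total counts per library were between 5408847 and 6196722, and 13975 loci passed the filter on low counts. The first 2 principal components separated the 3 groups, while Col-0 replicate 3 stood apart on the third. That library had 0.178% of counts from mitochondrial loci against 0.0756% to 0.0878% in the other Col-0 and the pp2-a5 libraries, and 200, 205 and 2300 CPM (counts scaled to a library of 1e6) of the 18S ribosomal locus AT3G41768 were counted in Col-0 replicates 1 to 3. Leaf identity was clear: photosynthesis genes summed to between 95500 and 100000 CPM in Col-0 and between 81200 and 86700 CPM in pp2-a5, whereas seed markers summed to at most 0.932 CPM in any library. Counts varied with how many transcripts the annotation gives a gene. The median Col-0 level of protein-coding loci in the table was 10.4 CPM with 1 annotated transcript and 0.676 CPM with 5 or more, and 72.3% and 40.4% of them passed the filter. Genes such as ICS1, CBP60g, EDS1 and BAK1, each with 2 or 3 annotated transcripts, held 0 to 4 counts over the 3 libraries of a group, so a locus that was not tested is not thereby silent. How reads shared between transcripts were counted is not given in the sources used here, so the level and the fold change of a gene with several transcripts, such as SNC1, RPP1, LURP1 and AOP2, may rest on part of its reads.

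In pp2-a5 against Col-0, 1719 loci were higher and 1183 lower at a Benjamini-Hochberg adjusted p under 0.05 (edgeR quasi-likelihood test), which is 12.3% and 8.47% of the tested loci and 20.8% together. The rises were the larger changes: 406 loci rose and 65 fell by at least 2-fold, and 50 rose and 10 fell by at least 4-fold. The median change was 0.60 on the log2 scale among loci called higher and -0.36 among those called lower. Replicates of the 2 groups did not overlap at 4706 loci, 33.7% of those tested. In bulk RNA, fewer cells of a type and less RNA per cell cannot be told apart, and this holds for every level below. Without Col-0 replicate 3, 1797 loci were higher and 1348 lower at the same threshold.

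**Figure D1:**
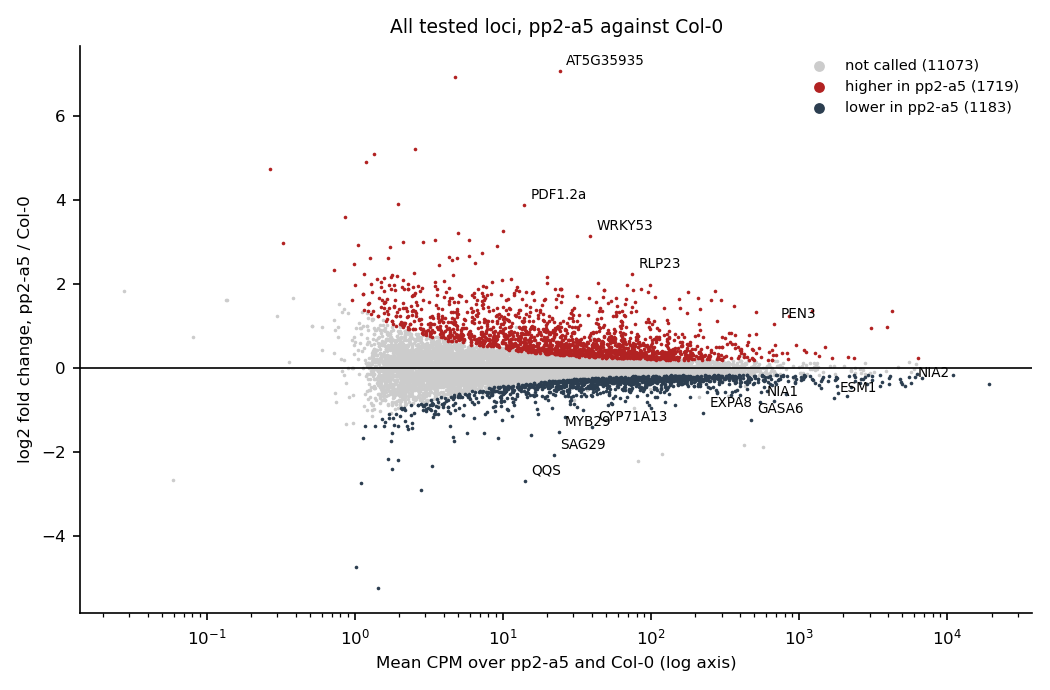
Log2 fold change of pp2-a5 over Col-0 (vertical axis) against the mean CPM of the 2 groups (horizontal log axis) for the 13975 tested loci; each point is 1 locus, coloured by its call. Among loci with at least 20 CPM in the higher group the extremes were AT5G35935 at 7.06 and QQS at -2.70.

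Loci with at least 20 CPM in the higher group show what changed most among well-measured transcripts. The largest rise was at AT5G35935, an uncharacterised locus on chromosome 5 from 14083388 to 14089891 (TAIR10.1), which had 0.483, 0.334 and 0.186 CPM in the Col-0 replicates, 44.2, 51.3 and 49.1 in pp2-a5 and 0.165, 0.18 and 0 CPM in PP2-A5oe. It was thus close to absent in both reference groups and well above them in every pp2-a5 library. WRKY53, a transcription factor of senescence and defence, had 7.24, 6.18 and 10.6 CPM in Col-0 and 76.5, 62.8 and 70.8 in pp2-a5. PCR1, a small protein linked to cadmium tolerance, had 7.72, 8.35 and 7.45 CPM in Col-0 and 34.9, 33.3 and 26.8 in pp2-a5. BT5, one of the BTB and TAZ domain scaffold proteins, went from 36.7 ± 5.10 to 135 ± 5.06 CPM (mean ± SD, n = 3 per group) and the legume lectin locus AT3G15356 from 40.2 ± 1.5 to 157 ± 6.28 CPM. All of these groups were free of overlap, which was a condition of being named here. The receptor-like kinase gene RLK1 and the metal transport locus AT5G52750 had rises of 1.87 ± 0.13 and 1.88 ± 0.12 log2 units (± SE, adjusted p = 2.62e-13 and 1.04e-14).

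Falls of the same abundance class were led by QQS, a short protein that affects starch content, with 27, 25.1 and 21.2 CPM in Col-0 and 3.72, 3.96 and 3.59 in pp2-a5. SAG29, a sugar transporter of senescing tissue, had 37, 35.9 and 34.3 CPM in Col-0 and 9.87, 7.59 and 7.8 in pp2-a5. GASA6, a gibberellin-regulated peptide of elongation growth, had 636, 583 and 785 CPM in Col-0 and 295, 276 and 278 in pp2-a5, and EXPA8, an expansin that loosens cell walls, had 307, 288 and 321 CPM in Col-0 and 149, 146 and 137 in pp2-a5. For QQS, SAG29, GASA6 and EXPA8 every pp2-a5 value lay below every Col-0 value, with log2 changes of -2.70 ± 0.16, -2.08 ± 0.13, -1.24 ± 0.08 and -1.09 ± 0.07 and a largest adjusted p of 1.51e-11. AK3, an aspartate kinase of amino acid synthesis, fell by 1.02 log2 units and the copper amine oxidase locus AT1G31690 by 0.99.

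Among loci that averaged over 1000 CPM across the 2 groups, chosen after their values were seen, 4 rose and 3 fell by at least 1.5-fold. The uncharacterised locus AT5G42530 had 2270, 2520 and 2340 CPM in Col-0 and 6370, 5960 and 5890 in pp2-a5, with 3370 ± 265 CPM in PP2-A5oe. GSTF2, a glutathione transferase that binds small defence compounds, went from 688 ± 40.8 to 1750 ± 81.8 CPM. ECS1, a cell wall protein, went from 2660 ± 17.4 to 5260 ± 355 CPM, and EXT3, an extensin that forms the wall scaffold, from 2100 ± 247 to 4050 ± 313 CPM. Each of the 4 was also higher in pp2-a5 than in PP2-A5oe, the largest adjusted p of that contrast being 6.16e-07. The 3 that fell were ESM1, DELTA-TIP, a water channel of the vacuole, and the chloroplast locus ATCG01130, with changes of -0.73, -0.60 and -0.67 log2 units.

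Members and medians of the gene lists follow beside those of all 13975 tested loci, whose median log2 change was -0.01 in pp2-a5 against Col-0. In the direct contrast pp2-a5 against PP2-A5oe, 762 loci were higher (5.45%) and 1007 lower (7.21%), 12.7% in all, with a median of 0.00. In PP2-A5oe against Col-0, 2027 were higher (14.5%) and 1469 lower (10.5%), 25.0% in all, with a median of -0.02, and under upper-quartile scaling 1769 were higher and 2069 lower. The comparisons share libraries, so their values are set side by side, and only the direct contrast tests whether the lines differ. Over all lists, 251 of the 416 tested loci were called in pp2-a5 against Col-0, 183 higher and 68 lower. These lists were drawn up for pathways that earlier results of the same data had pointed to, so their share stands above 20.8% partly by choice.

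**Figure D2:**
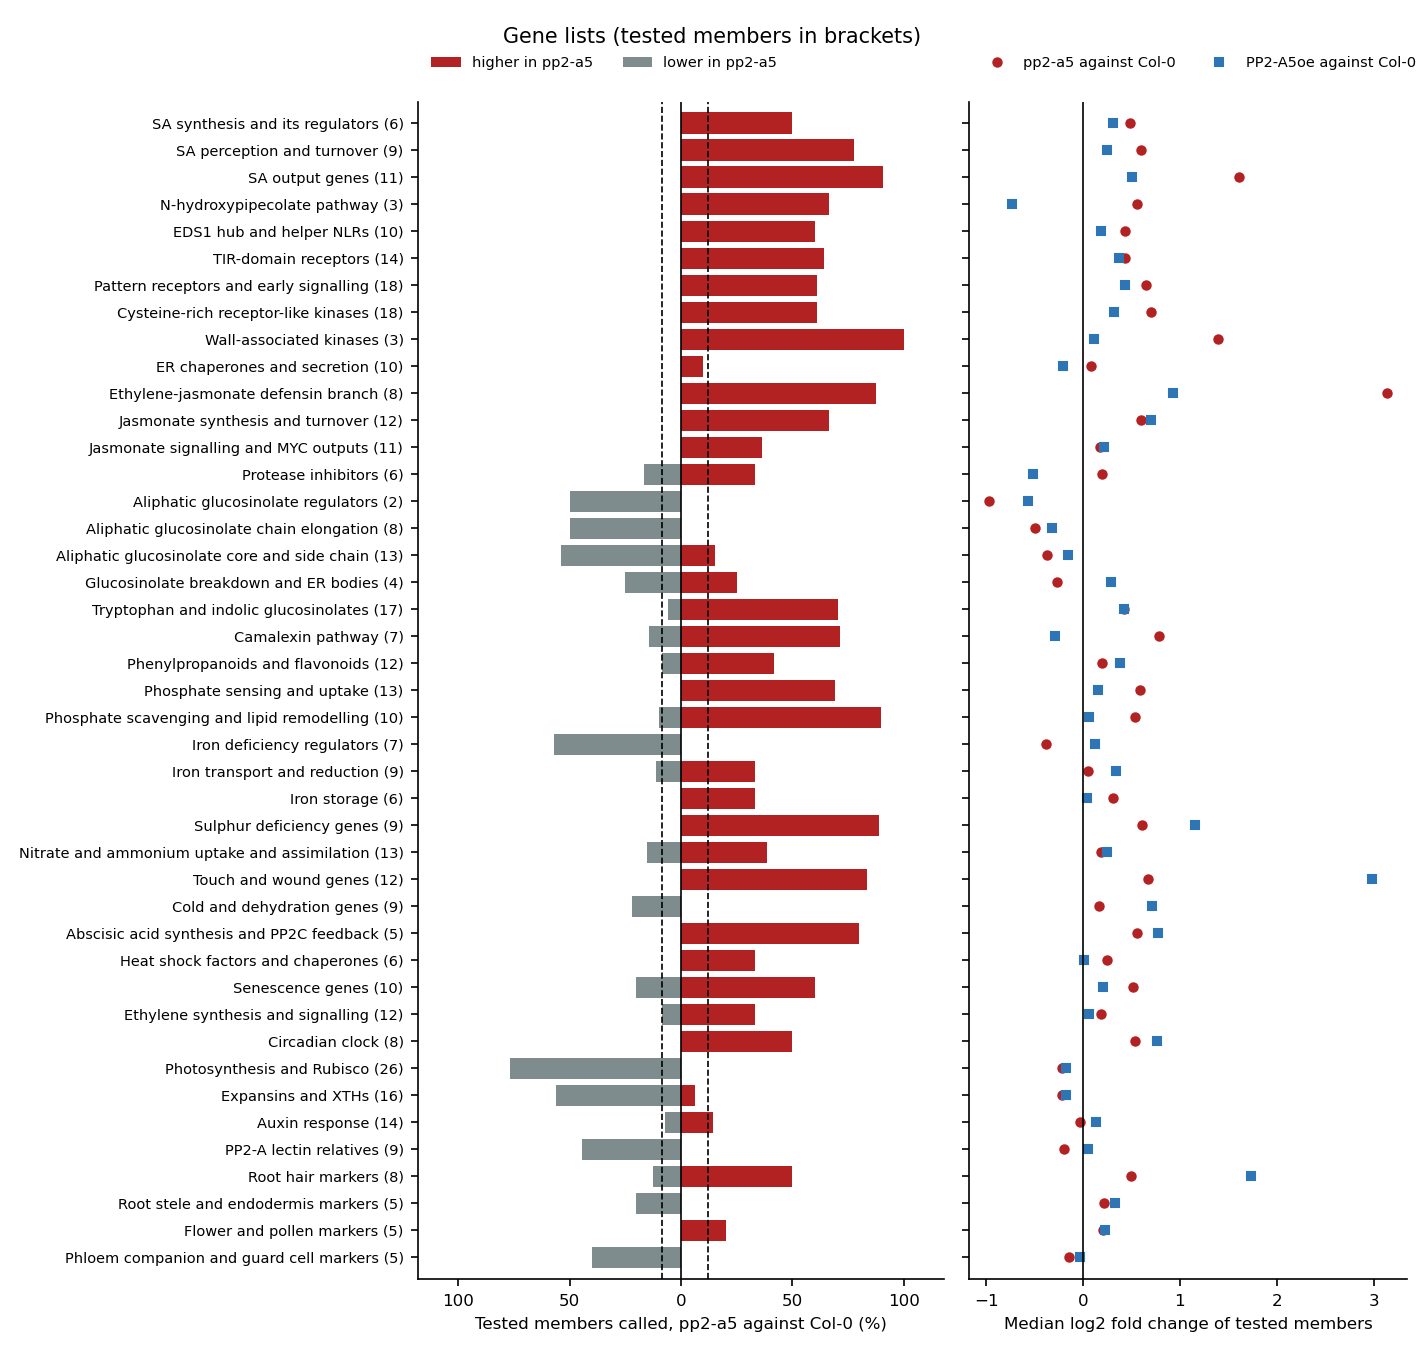
Gene lists by the share of tested members called in pp2-a5 against Col-0 (left, percent, higher to the right and lower to the left, dashed lines at 12.3% and 8.47% for all tested loci) and by their median log2 fold change in both lines against Col-0 (right). Defence and phosphate lists lean right, photosynthesis, wall loosening, aliphatic glucosinolate and iron regulator lists lean left.

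Output genes of salicylic acid were higher in pp2-a5. Of 11 tested output genes 10 rose and none fell, with a median of 1.61, and 9 of the 11 were higher in pp2-a5 than in PP2-A5oe. PR1, a secreted antimicrobial protein and the standard marker of this hormone, lies on chromosome 2 from 6241640 to 6242541. It had 28.3, 25.9 and 29.3 CPM in Col-0, 121, 108 and 100 in pp2-a5 and 32.7, 32.5 and 30.9 CPM in PP2-A5oe, so that the mutant stood alone and the overexpressing line lay just above Col-0. The change in pp2-a5 was 1.98 ± 0.09 log2 units (adjusted p = 2.68e-18) and the excess over PP2-A5oe was 1.77 ± 0.09 (adjusted p = 1.92e-17). PR2, a glucanase that attacks fungal walls, had 61.6, 61.3 and 76.8 CPM in Col-0 and 142, 145 and 145 in pp2-a5. PR5, a thaumatin-like antifungal protein, had 15.9, 15.4 and 17.5 CPM in Col-0 and 43.5, 41.9 and 41.2 in pp2-a5. WRKY70, a transcription factor that favours salicylic acid over jasmonate outputs, had 32.2, 33.2 and 34.5 CPM in Col-0 and 106, 97.8 and 105 in pp2-a5, with no overlap in any of these genes. LURP1, needed for full resistance to downy mildew, had 8.2, 7.18 and 6.34 CPM in Col-0 and 35.8, 30.2 and 31.5 in pp2-a5 (4 annotated transcripts). The remaining changes lay at 1.26 for WRKY54, 1.74 for WRKY38, 1.91 for WRKY51, 1.61 for RLP52 and 0.70 for PNP-A. The last of these lost its call without Col-0 replicate 1 or 2 or pp2-a5 replicate 1 (adjusted p up to 0.242), and GRX480, a glutaredoxin that represses jasmonate genes, was at 0.67 ± 0.37 and not called. GRX480 was 1 of the 9 called against PP2-A5oe, a call lost without PP2-A5oe replicate 2 or 3 (adjusted p up to 0.0588).

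Perception and turnover genes of the hormone moved less. Of 9 tested, 7 rose and none fell (median 0.60, 5 of 9 higher than in PP2-A5oe). NPR1, a receptor and the co-activator of PR genes, had 41.5, 44.4 and 47.5 CPM in Col-0 and 66.7, 67.9 and 67.5 in pp2-a5, and its paralogues NPR3 and NPR4, which hold the response in check, rose by 0.67 and 0.57 log2 units. The 2 enzymes that hydroxylate salicylic acid rose the most. DMR6 had 80.9, 74.3 and 82 CPM in Col-0, 287, 277 and 269 in pp2-a5 and 151, 139 and 153 CPM in PP2-A5oe. DLO1 had 5.63, 7.02 and 7.08 CPM in Col-0, 21.8, 19.8 and 19.5 in pp2-a5 and 5.62, 6.29 and 6.9 CPM in PP2-A5oe. DMR6 was raised in both lines and more so in the mutant, by 0.91 ± 0.06 log2 units, whereas DLO1 was at the Col-0 level in PP2-A5oe. NIMIN2, an NPR1-binding repressor, and TGA3, a bZIP partner of NPR1, rose by 1.02 and 0.44, the former with its call lost without Col-0 replicate 1 or 3 or pp2-a5 replicate 1 or 2 (adjusted p up to 0.115). The glucosyltransferases UGT74F2 and UGT76B1, which store the hormone and N-hydroxypipecolate as sugar conjugates, were at -0.10 ± 0.07 and 0.56 ± 0.23 and not called against Col-0, but both were higher in pp2-a5 than in PP2-A5oe (0.64 ± 0.07 and 1.29 ± 0.26). At UGT74F2 this difference between the lines thus went with no rise over Col-0. In PP2-A5oe against Col-0, 4 of the 9 members were higher and 1 lower (median 0.25).

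Synthesis genes were less uniform, with 3 of 6 tested members higher and none lower (median 0.49). SARD1, a transcription factor that switches on synthesis, had 5.79, 4.51 and 5.22 CPM in Col-0 and 17.3, 16 and 14.7 in pp2-a5. WRKY46 had 3.7, 3.34 and 5.78 CPM in Col-0, 11.6, 12.9 and 9.98 in pp2-a5 and 21.2, 22.8 and 20.4 CPM in PP2-A5oe, so here the overexpressing line was the highest. EDS5, the exporter of the precursor from the chloroplast, was at 0.54 ± 0.19 (adjusted p = 0.0406), and this call was lost without Col-0 replicate 1, 2 or 3 or pp2-a5 replicate 1 or 3 (adjusted p up to 0.186). PBS3 and EPS1, which finish the synthesis, were at 0.24 ± 0.11 and 0.26 ± 0.13 and not called. Of the pathway to N-hydroxypipecolate, the mobile signal of systemic resistance, 2 of 3 tested members rose. They were AT5G52810, annotated here without a symbol, at 0.44 ± 0.11, and FMO1, which makes the signal, at 0.93 ± 0.33, a call lost without Col-0 replicate 1, 2 or 3 or pp2-a5 replicate 1 or 3 (adjusted p up to 0.181). In the direct contrast all 3 were higher in pp2-a5, FMO1 by 1.94 ± 0.39.

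Within the EDS1 module and the helper receptors 6 of 10 tested members rose and none fell (median 0.43). In PP2-A5oe against Col-0, 4 of the 10 were higher and none lower (median 0.19). The direct contrast had 4 higher and 1 lower in pp2-a5 (median 0.20). PAD4, the EDS1 partner of basal resistance, had 36.8, 37.1 and 44.5 CPM in Col-0 and 67, 63.3 and 59.6 in pp2-a5. AT3G48080, an alpha/beta-hydrolase locus next in the EDS1 gene cluster, had 4.02, 3.01 and 4.29 CPM in Col-0, 11.5, 11.7 and 15.1 in pp2-a5 and 4.3, 3.78 and 3.28 CPM in PP2-A5oe, and thus rose in the mutant alone. It overlaps the exons of a neighbour, and reads of the 2 loci cannot be told apart without strand. NDR1, needed for resistance through another receptor class, had 7.72, 8.85 and 8.94 CPM in Col-0, 19.3, 15.2 and 20.6 in pp2-a5 and 41.2, 36.7 and 39.8 CPM in PP2-A5oe. The helper receptor genes ADR1-L2 and AT5G66910 rose by 0.36 and 0.72, while ADR1, at 0.49, lost its call without Col-0 replicate 2 (adjusted p = 0.0563). The chaperones SGT1B and RAR1, which keep immune receptors folded, were at 0.13 ± 0.06 and 0.11 ± 0.14 and not called.

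Receptors that carry a TIR domain themselves moved in the same direction: 9 of 14 tested rose and none fell (median 0.43). In PP2-A5oe against Col-0, 8 of the 14 were higher and 1 lower (median 0.37). The direct contrast of the lines had 4 higher and 1 lower in pp2-a5 (median 0.14). Calls there for RPP1, RPS6, CSA1 and AT1G66090 were lost when 1 of several libraries was left out (adjusted p up to 0.127). SNC1, whose activation alone triggers salicylic acid defence, had 207, 209 and 178 CPM in Col-0 and 265, 274 and 298 in pp2-a5 (5 annotated transcripts). RPP4 and RPP1, receptors of downy mildew strains, rose by 0.82 and 0.78, and RPS6, WRR4 and LAZ5 by 0.57, 0.42 and 0.42. AT1G66090, which has a TIR domain and a nucleotide-binding domain, had 5.47, 5.18 and 6.71 CPM in Col-0 and 11.8, 15.3 and 13.7 in pp2-a5. Col-0 replicate 3 was the lowest Col-0 library for SNC1, RPP1, RPP4, RPS6 and WRR4; without it SNC1 was at 0.43, RPP1 at 0.67 and RPS6 at 0.43, all still called. RPS4 and its partner RRS1, and CSA1 with CHS3, were not called, at 0.18, 0.34, -0.03 and 0.18. Several of these genes sit in clusters of close paralogues, between which short reads may be split.

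At the cell surface, 11 of 18 tested pattern receptors and early signalling genes rose and none fell (median 0.65). The same held in PP2-A5oe against Col-0, with 11 of 18 higher and none lower (median 0.43). Between the lines they had no common direction: the direct contrast had 4 higher and 2 lower (median -0.02). That is 33.3% of the list, against 12.7% of all tested loci. Of the 4, BKK1 and FLS2 lost that call when 1 of several libraries was left out (adjusted p up to 0.172). FRK1, 1 of the 11 that rose over Col-0, lost its call without Col-0 replicate 1 or 2 or pp2-a5 replicate 2 or 3 (adjusted p up to 0.125). RLP23, which binds a peptide shared by fungal, oomycete and bacterial proteins, had 31.9, 22.2 and 25.2 CPM in Col-0, 122, 126 and 121 in pp2-a5 and 50.6, 49.1 and 61.7 CPM in PP2-A5oe. SOBIR1, the kinase that RLP23 signals through, had 133, 137 and 147 CPM in Col-0, 310, 279 and 269 in pp2-a5 and 326, 342 and 316 CPM in PP2-A5oe. Receptor and kinase thus differed: RLP23 was higher in pp2-a5 than in PP2-A5oe by 1.19 ± 0.09, whereas SOBIR1 was at -0.20 ± 0.07 in that contrast, a call lost without PP2-A5oe replicate 1 or 2 or pp2-a5 replicate 2 or 3 (adjusted p up to 0.233). BKK1, a co-receptor kinase, and MPK3, a kinase of the immune cascade, rose by 1.05 and 0.89, and RBOHD, the oxidase of the immune oxidative burst, by 0.54. The chitin receptor subunits LYK4 and LYK5, the elongation factor receptor EFR, the lectin kinase SD1-29 and BIR1 rose by 0.65 to 0.82 log2 units. FLS2, the flagellin receptor, CERK1, BIK1, PEPR1 and MPK6 were not called, at 0.18, 0.24, 0.17, 0.09 and -0.02.

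Cysteine-rich receptor-like kinases, a family clustered on chromosome 4 whose members are induced by salicylic acid and by pathogens, followed: 11 of 18 tested rose, none fell (median 0.70), and 10 were higher and 1 lower in pp2-a5 than in PP2-A5oe. Of these 10, CRK2, CRK8 and CRK28 lost that call when 1 of several libraries was left out (adjusted p up to 0.253). The rise of CRK20 was lost without Col-0 replicate 1 or pp2-a5 replicate 1, 2 or 3 (adjusted p up to 0.137). CRK4 had 27.8, 29.1 and 21.6 CPM in Col-0 and 74.7, 79.2 and 77.8 in pp2-a5. CRK14 had 4.67, 7.18 and 7.45 CPM in Col-0 and 23, 23.3 and 20.4 in pp2-a5, and CRK10 85.7, 82.7 and 74.3 and 181, 174 and 177 CPM. None of these groups overlapped. CRK7, CRK15 and CRK23 were raised in the mutant (1.7, 1.92 and 1.72) and not called in PP2-A5oe against Col-0 (0.35, 0.63 and 0.30), and the direct contrast was past the threshold for each, the largest adjusted p being 1.88e-05. CRK41 was the exception, with 9.81, 7.35 and 12.1 CPM in Col-0, 27.5, 26.7 and 27.4 in pp2-a5 and 34.2, 37 and 40.7 CPM in PP2-A5oe. All 3 tested wall-associated kinases, which sense pectin fragments, rose. WAK1 had 119, 112 and 125 CPM in Col-0 and 322, 302 and 308 in pp2-a5, WAK3 rose by 1.51, and WAK2 by 0.28, a call lost without Col-0 replicate 1 or pp2-a5 replicate 1 (adjusted p up to 0.0955).

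**Figure D3:**
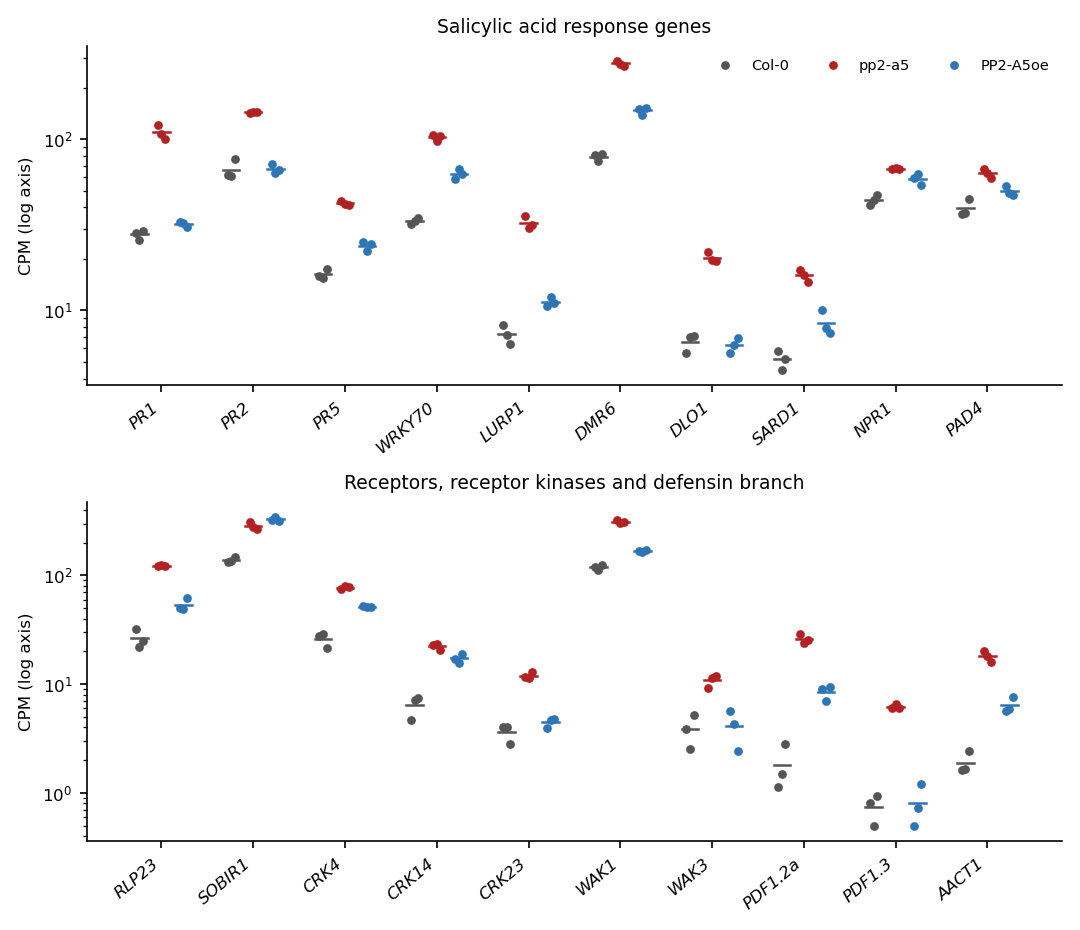
CPM (log axis) of salicylic acid response genes (top) and of receptors, receptor kinases and the defensin branch (bottom) in each library; points are the 3 replicates of a group and short lines their mean. For PR1 the pp2-a5 libraries sit at 100 to 121 CPM while Col-0 and PP2-A5oe lie at 25.9 to 32.7 CPM.

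Because these kinases rose together, the 250 bases before their annotated starts were searched on both strands for the W-box (TTGACC or TTGACT), the binding motif of WRKY factors. It was found in 18 of 31 such promoters of listed CRK and WAK genes (58.1%), against 28.4% of all 27443 promoters; among loci at least 2-fold higher in pp2-a5 the share was 46.5% (185 of 398), and among those at least 2-fold lower 35.1% (20 of 57). The windows below, in RefSeq TAIR10.1, show 4 kinase genes that rose; capitals mark the motif on either strand (AGTCAA and GGTCAA are its reverse complements).
CRK14 (chr4:12157019-12157078, minus strand): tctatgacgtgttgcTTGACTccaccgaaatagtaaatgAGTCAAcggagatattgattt
CRK15 (chr4:12160351-12160410, minus strand): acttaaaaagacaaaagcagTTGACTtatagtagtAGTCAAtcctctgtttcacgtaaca
CRK4 (chr3:16866452-16866511, minus strand): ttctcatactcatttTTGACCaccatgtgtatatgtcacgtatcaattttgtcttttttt
CRK41 (chr4:418242-418301, plus strand): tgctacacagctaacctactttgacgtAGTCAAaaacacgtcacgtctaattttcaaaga
CRK14 and CRK15 each hold 2 motifs within 60 bases, but they are neighbours in 1 tandem cluster and share ancestry. Of the 14 CRK and WAK genes that rose, 9 hold the motif, of the 7 tested but not called 3 do, and of the 7 not tested 5 do. The motif is thus common in the listed family, also among members without a called rise. A match is a match of letters and shows no binding. For the PR1 promoter no W-box lay within this window, and the salicylic acid lists as a whole held it in 7 of 35 promoters.

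Folding helpers of the secretory pathway, which act in the endoplasmic reticulum on secreted proteins such as PR proteins, were mostly not called against Col-0. Of 10 tested members 1 rose and none fell (median 0.08): BZIP60, a transcription factor of the unfolded protein response, had 43.1, 44.4 and 56.6 CPM in Col-0 and 81.1, 81.3 and 75.2 in pp2-a5. BIP1, a luminal chaperone, and the calnexin gene CNX1 were not called, at 0.14 ± 0.06 and -0.01 ± 0.06. Against PP2-A5oe 4 of the 10 were higher and none lower (median 0.21), among them BIP1 at 0.28 ± 0.06. CNX1, also among them, lost that call without PP2-A5oe replicate 1, 2 or 3 or pp2-a5 replicate 1, 2 or 3 (adjusted p up to 0.169). PDIL1-2 lost its call without pp2-a5 replicate 1 (adjusted p = 0.0676). BIP2, CRT1A, CRT3 and SHD held 0 or 1 counts over the 3 libraries of each group and were not tested.

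The ethylene and jasmonate defensin branch had the largest list median, 3.14, with 7 of 8 tested members higher, none lower, and all 8 higher in pp2-a5 than in PP2-A5oe. PDF1.2a, a plant defensin against fungi, had 1.13, 1.5 and 2.79 CPM in Col-0, 29, 23.7 and 25.7 in pp2-a5 and 9.09, 7.01 and 9.49 CPM in PP2-A5oe. PDF1.3 had 0.804, 0.501 and 0.932 CPM in Col-0, 5.99, 6.6 and 6.08 in pp2-a5 and 0.496, 0.719 and 1.21 CPM in PP2-A5oe. Both defensins were thus highest in the mutant, but only PDF1.2a was also raised in the overexpressing line. The copies PDF1.2b and PDF1.2c, near zero in Col-0, moved with them; defensin copies are similar in sequence, and reads may be shared between them. AACT1, an acyltransferase that makes antifungal coumaroylagmatines, had 1.61, 1.67 and 2.42 CPM in Col-0 and 20.1, 18.3 and 15.9 in pp2-a5. The chitinase CHI-B and the chitin-binding PR4 rose by 0.52 and 0.94, while ORA59, the AP2/ERF factor that integrates both hormones, was at 0.73 ± 0.27 (adjusted p = 0.0555) and not called. Its call against PP2-A5oe, 1 of the 8, was lost without PP2-A5oe replicate 2 or 3 or pp2-a5 replicate 1 or 3 (adjusted p up to 0.128).

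The GCC box (GCCGCC), the motif bound by ethylene response factors such as ORA59, lay in 4 of 10 promoters of this list (40%) and in 1.87% of all promoters. It is shown for 3 genes that rose, capitals marking the motif.
PDF1.2a (chr5:17907828-17907887, minus strand): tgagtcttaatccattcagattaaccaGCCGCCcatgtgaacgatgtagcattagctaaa
PDF1.2b (chr2:11088953-11089012, plus strand): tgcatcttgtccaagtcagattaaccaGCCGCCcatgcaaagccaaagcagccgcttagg
AACT1 (chr5:24608545-24608604, plus strand): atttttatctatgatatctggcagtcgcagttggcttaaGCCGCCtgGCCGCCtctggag
PDF1.2a and PDF1.2b share the bases around their motif, as copies of 1 gene do. The fourth gene with the motif was ORA59 itself.

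Upstream in the jasmonate pathway, 8 of 12 tested synthesis and turnover genes rose and none fell (median 0.60). In PP2-A5oe against Col-0, 8 of the 12 were also higher and none lower (median 0.70). The direct contrast had 3 higher and 4 lower in pp2-a5 (median -0.14). Calls there for LOX2, LOX6 and AT5G05600 were lost when 1 of several libraries was left out (adjusted p up to 0.201). ST2A lost its rise over Col-0 without Col-0 replicate 2 or pp2-a5 replicate 3 (adjusted p up to 0.0765). LOX4 and LOX3, lipoxygenases of the wound response, rose by 1.62 and 0.80, and the allene oxide cyclases AOC1, AOC2 and AOC3 by 0.83, 0.53 and 0.80; the AOC genes lie in tandem and share sequence. AOS, which makes the substrate of these enzymes, had 119, 115 and 117 CPM in Col-0, 130, 138 and 135 in pp2-a5 and 203, 204 and 209 CPM in PP2-A5oe; its small rise in pp2-a5 lost its call without Col-0 replicate 1 or 2 or pp2-a5 replicate 2 or 3 (adjusted p up to 0.106), and in the direct contrast it was lower than in PP2-A5oe, at -0.61. AT5G05600, an oxygenase locus, rose by 0.95. LOX2, the abundant leaf lipoxygenase, was at -0.03 ± 0.09 and not called. In signalling, 4 of 11 tested members rose and none fell (median 0.18). MYC2, the master transcription factor of wound and herbivore responses, had 90.4, 95.4 and 95.2 CPM in Col-0, 142, 132 and 142 in pp2-a5 and 293, 287 and 271 CPM in PP2-A5oe, and was thus lower in the mutant than in the overexpressing line, at -1.03 log2 units. JAZ5, a repressor that MYC2 induces, rose by 0.83, and the receptor gene COI1, MYC3, JAZ2, JAZ6 and JAZ12 were not called (0.01 to 0.18). Among protease inhibitors 2 of 6 tested rose and 1 fell (median 0.20); AT1G17860 and ATTI1 rose by 0.89 and 0.83, and CYS1 fell by 0.30, a call lost without Col-0 replicate 3 (adjusted p = 0.0624).

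Most transcripts of the indolic glucosinolate pathway, which makes defence compounds from tryptophan, were higher. Of 17 tested genes from tryptophan to indolic glucosinolates 12 rose and 1 fell (median 0.42). CYP83B1, which commits indole intermediates to glucosinolates, had 381, 367 and 376 CPM in Col-0 and 678, 662 and 618 in pp2-a5. CYP81F2 and the methyltransferases IGMT1 and IGMT2, which modify the indole ring for antifungal defence, rose by 1.78, 1.29 and 2.61. PEN2, the myrosinase that activates the product, and PEN3, its exporter at the plasma membrane, had 60.6 ± 3.61 and 449 ± 26.8 CPM in Col-0 and 102 ± 5.97 and 915 ± 18.5 in pp2-a5. The 2 regulators went apart: MYB51, which answers to pathogens, rose by 1.01, and MYB34 fell from 56.9 ± 1.67 to 44.4 ± 2.18 CPM. CYP79B2 and CYP79B3, the entry enzymes, were at -0.01 and 0.09 and not called. In PP2-A5oe the tailoring genes were raised as much, and the direct contrast found no difference past the threshold for CYP81F2 (0.10 ± 0.12), IGMT2 (-0.04 ± 0.18) or PEN2 (-0.01 ± 0.07).

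The camalexin pathway, the other branch from the same precursor, split. Of 7 tested genes 5 rose and 1 fell (median 0.79). CYP71A12 had 17.2, 22.1 and 20.9 CPM in Col-0, 34.5, 32 and 31.8 in pp2-a5 and 8.76, 6.47 and 9.83 CPM in PP2-A5oe. Its close relative CYP71A13 had 58.9, 58.5 and 56.6 CPM in Col-0, 20.5, 24.6 and 20.6 in pp2-a5 and 48.3, 41.9 and 52.3 CPM in PP2-A5oe. Counts of the pair, which both turn indole acetaldoxime into a nitrile, therefore moved in opposite directions in the mutant, and CYP71A13 overlaps the exons of AT2G30766, an iron-deficiency locus that also fell (below). Reads of CYP71A13 and AT2G30766 cannot be told apart without strand, so their falls may not be 2 separate results. WRKY33, the transcription factor of the pathway, had 72.9, 83.2 and 70.1 CPM in Col-0, 232, 245 and 221 in pp2-a5 and 302, 302 and 322 CPM in PP2-A5oe. The glutathione transferase GSTF7 rose by 1.46 and PAD3, the last enzyme, was at 0.38 ± 0.16 and not called; against PP2-A5oe, where it was below Col-0, PAD3 was higher by 1.57 ± 0.19.

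Genes for aliphatic glucosinolates, anti-herbivore compounds made from methionine, were lower or not called apart from a pair of transporters. MYB29, one of their regulators, had 36.5, 33.9 and 36.1 CPM in Col-0, 9.87, 12.4 and 14.3 in pp2-a5 and 24.3, 18.9 and 22.2 CPM in PP2-A5oe, whereas its relative MYB28 was at -0.40 ± 0.20 and not called. Of 8 tested chain elongation genes 4 fell and none rose (median -0.50). BCAT4, the first aminotransferase, had 33, 32.4 and 44.5 CPM in Col-0 and 16.5, 14.8 and 17.2 in pp2-a5, and MAM1, IPMI1 and IPMI2 fell by 0.81, 0.66 and 0.90. Of 13 tested core and side chain genes 7 fell and 2 rose (median -0.37). AOP2, a side chain dioxygenase with 2 annotated transcripts, had 14.3, 13.4 and 14.7 CPM in Col-0 and 3.56, 6.1 and 3.59 in pp2-a5, and CYP79F1, the entry enzyme, had 12.5, 12.7 and 16.8 and 6.96, 6.27 and 4.37 CPM. The 2 that rose were the transporters GTR1 and GTR2 (0.35 and 0.39), which move glucosinolates rather than make them. Among 4 tested breakdown genes 1 fell and 1 rose: ESM1, which steers hydrolysis towards isothiocyanates, had 2120, 2070 and 2220 CPM in Col-0 and 1330, 1270 and 1270 in pp2-a5, and NSP5 rose by 0.25. PYK10, the ER body myrosinase, was at -0.01 ± 0.07 and not called.

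Phenylpropanoid and flavonoid genes showed 5 higher and 1 lower of 12 tested (median 0.20). PAL1 and C4H, at the head of the pathway, rose by 0.32 and 0.26, the chalcone isomerase CHI (AT3G55120) by 0.58, and MYB90, an anthocyanin regulator, from 0.643 ± 0.475 to 2.95 ± 0.185 CPM. CHS, the chalcone synthase, was at 0.03 ± 0.07 and not called, and neither were DFR (-0.03) and TT8 (-0.37). The rise of F3'H was lost without Col-0 replicate 1 or 2 or pp2-a5 replicate 1, 2 or 3 (adjusted p up to 0.160). UF3GT, the member that fell, lost its call without pp2-a5 replicate 1 (adjusted p = 0.0584).

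Most genes of phosphate starvation were higher in pp2-a5 than in Col-0, and many also than in PP2-A5oe. Plants sense phosphate through SPX proteins, which bind inositol pyrophosphates and hold back the transcription factor PHR1 when phosphate is ample; under shortage PHR1 switches on transporters, phosphatases and lipid remodelling. Of 13 tested sensing and uptake genes 9 rose and none fell (median 0.59), and 7 were higher than in PP2-A5oe. PHO1;H1, in both counts, lost its call against Col-0 without Col-0 replicate 2 or pp2-a5 replicate 1 or 3 (adjusted p up to 0.0785). Its call against PP2-A5oe was lost without PP2-A5oe replicate 2 or pp2-a5 replicate 1 or 3 (adjusted p up to 0.229). SPX1, a PHR1 target and inhibitor that lies on chromosome 5 from 6802282 to 6803655, had 65.5, 67.5 and 67.6 CPM in Col-0, 194, 166 and 175 in pp2-a5 and 88.1, 88.8 and 95.5 CPM in PP2-A5oe. PHT1;1, the main uptake transporter, had 4.02, 3.34 and 2.42 CPM in Col-0 and 10.2, 11.1 and 9.36 in pp2-a5. The non-coding RNAs AT4 and IPS1, which act as decoys for miR399, had 11.6, 9.52 and 16 and 12.7, 13.2 and 16.4 CPM in Col-0 and 37.9, 32.2 and 29.6 and 24.6, 19.3 and 19.6 in pp2-a5. For SPX1, PHT1;1, AT4 and IPS1 no pp2-a5 replicate fell within the Col-0 range, and the direct contrast against PP2-A5oe was 0.97, 0.88, 1.06 and 0.77. SPX2, PHF1, which brings transporters to the membrane, and PHT1;4 rose by 0.75, 0.75 and 0.57. PHR1 itself, at 0.08 ± 0.07, the ubiquitin conjugase gene PHO2, at 0.31 ± 0.12, PHO1 and SPX4 were not called.

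Scavenging and lipid remodelling genes gave 9 higher and 1 lower of 10 tested (median 0.54), and 9 of the 10 were higher in pp2-a5 than in PP2-A5oe. GDPD1, which frees phosphate from glycerol diesters, had 49.9, 50.5 and 51.8 CPM in Col-0, 177, 159 and 154 in pp2-a5 and 93.7, 93 and 88.6 CPM in PP2-A5oe. PAP17, a purple acid phosphatase, had 59.5, 53 and 63.9 CPM in Col-0 and 138, 135 and 119 in pp2-a5. In both genes the order was Col-0, PP2-A5oe, pp2-a5 without overlap. A second pattern put PP2-A5oe below Col-0. NPC4, a phospholipase C, had 14.3, 12.5 and 12.1 CPM in Col-0, 20.7, 17.2 and 19.3 in pp2-a5 and 5.95, 5.04 and 5 CPM in PP2-A5oe. PS2, a phosphatase, had 71.6, 77.5 and 82.5 CPM in Col-0, 121, 107 and 107 in pp2-a5 and 49.4, 50.9 and 47.4 CPM in PP2-A5oe. SPX3, an SPX inhibitor with the same order, had 6.11, 7.18 and 7.08 CPM in Col-0, 10.5, 11.4 and 9.51 in pp2-a5 and 2.15, 2.34 and 1.03 CPM in PP2-A5oe. Its rise over Col-0 (0.62 ± 0.18, adjusted p = 0.0108) was lost without Col-0 replicate 1 or pp2-a5 replicate 2 (adjusted p up to 0.0643), while the difference of the lines was 2.49 ± 0.24 (adjusted p = 6.23e-10). RNS1, a ribonuclease, was the member that fell, from 3.59 ± 1.53 to 1.29 ± 0.287 CPM. It was at 0.350 ± 0.187 CPM in PP2-A5oe, and its call in the direct contrast (adjusted p = 0.0423), 1 of the 9, was lost without PP2-A5oe replicate 1, 2 or 3 or pp2-a5 replicate 1, 2 or 3 (adjusted p up to 0.196). MGD2 and PLDZETA2, also among the 9, lost that call too. For MGD2 this was without PP2-A5oe replicate 1 or 2 or pp2-a5 replicate 1 or 2 (adjusted p up to 0.155). For PLDZETA2 it was without PP2-A5oe replicate 2 or pp2-a5 replicate 2 or 3 (adjusted p up to 0.0805). Against Col-0, the rises of SQD1 and PAP12 were lost when 1 of several libraries was left out (adjusted p up to 0.201).

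The PHR1 binding site P1BS (GNATATNC) was present within 250 bases of the start in 7 of the 18 phosphate genes that rose, and in neither RNS1, which fell, nor any of the 4 not called; over all promoters the share was 5.46%. The 7 windows are given in RefSeq TAIR10.1, with the site in capitals.
SPX3 (chr2:18606294-18606353, plus strand): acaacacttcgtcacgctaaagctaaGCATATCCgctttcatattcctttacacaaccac
AT4 (chr5:894522-894581, plus strand): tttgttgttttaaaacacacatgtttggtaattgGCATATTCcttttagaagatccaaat
GDPD1 (chr3:350040-350099, minus strand): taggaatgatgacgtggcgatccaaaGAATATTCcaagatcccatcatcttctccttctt
PS2 (chr1:27466532-27466591, minus strand): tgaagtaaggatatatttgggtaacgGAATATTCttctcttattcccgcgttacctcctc
NPC4 (chr3:845282-845341, minus strand): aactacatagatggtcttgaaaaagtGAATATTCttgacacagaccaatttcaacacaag
MGD2 (chr5:6896403-6896462, plus strand): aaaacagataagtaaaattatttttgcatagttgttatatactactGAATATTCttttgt
PLDZETA2 (chr3:1634988-1635047, plus strand): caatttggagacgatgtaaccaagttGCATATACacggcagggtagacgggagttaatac
GDPD1, PS2, NPC4 and MGD2 carry the same 8 letters, GAATATTC, which read alike on both strands. SPX1, PAP17 and PHT1;1 hold no such letters in this window, which says nothing about sites further away. Genes with the site include both orders of the lines, GDPD1 with PP2-A5oe above Col-0 and NPC4, PS2 and SPX3 with PP2-A5oe below it.

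**Figure D4:**
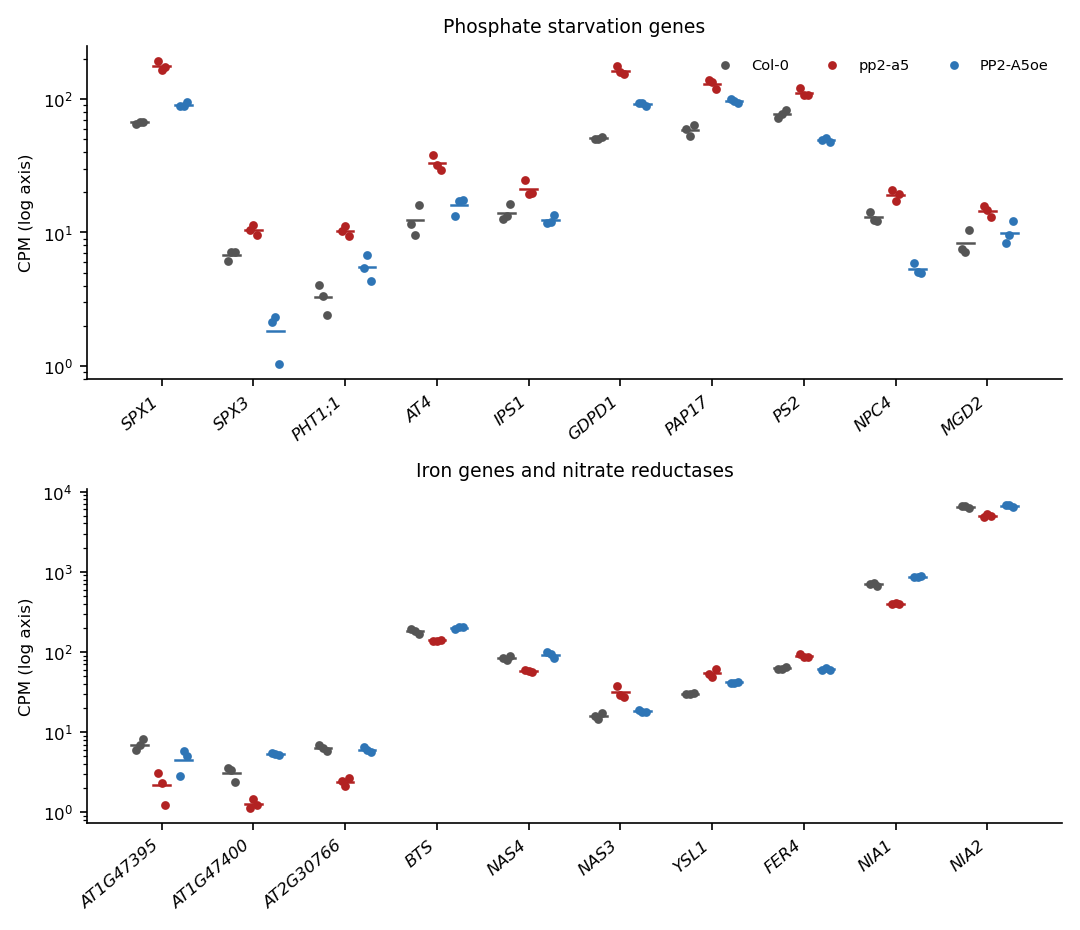
CPM (log axis) of phosphate starvation genes (top) and of iron genes and nitrate reductases (bottom) in each library; points are the 3 replicates of a group and short lines their mean. The pp2-a5 libraries are the highest for all 10 phosphate genes and the lowest for AT1G47400, AT2G30766, BTS, NAS4, NIA1 and NIA2.

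Iron-deficiency regulators ran the other way. Of 7 tested, 4 fell and none rose (median -0.38), and the same 4 were lower than in PP2-A5oe, AT1G47395 with that call lost without PP2-A5oe replicate 2 or 3 or pp2-a5 replicate 2 or 3 (adjusted p up to 0.180). AT1G47395 and AT1G47400, a neighbouring pair of uncharacterised small proteins, had 5.95, 6.85 and 8.2 and 3.54, 3.34 and 2.42 CPM in Col-0 and 3.07, 2.31 and 1.25 and 1.13, 1.48 and 1.25 in pp2-a5. AT2G30766 had 6.92, 6.35 and 5.78 CPM in Col-0 and 2.43, 2.14 and 2.65 in pp2-a5, and its exons overlap those of CYP71A13. Its fall, 1 of the 4, may thus not be separate from that of CYP71A13. BTS, an E3 ligase that limits the iron response, had 194, 184 and 166 CPM in Col-0, 137, 138 and 143 in pp2-a5 and 194, 202 and 206 CPM in PP2-A5oe. The factors of the Ib bHLH group, which turn on iron uptake, were too low to test: BHLH38 summed to 25 counts over the Col-0 libraries and 1 over pp2-a5, BHLH39 to 15 and 1, and BHLH101 to 20 and 11. FIT1 and ILR3, at -0.18 ± 0.26 and -0.01 ± 0.06, were not called.

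Transport and storage genes of iron did not share this direction. Of 9 tested transport genes 3 rose and 1 fell (median 0.05). NAS4, which makes the chelator nicotianamine, fell from 83.7 ± 4.63 to 58.0 ± 2.14 CPM, while its paralogue NAS3 had 15.9, 14.5 and 17.1 CPM in Col-0 and 37.2, 29.2 and 27.8 in pp2-a5. YSL1, a transporter of the metal chelate in leaves, rose by 0.86, and the chloroplast reductase FRO7 by 0.30. OPT3, which loads iron into the phloem, was at -0.07 ± 0.06 and not called. The ferritin FER4 had 61.6, 61.3 and 64.5 CPM in Col-0 and 93.7, 86.6 and 87.6 in pp2-a5, and with NEET, an iron-sulphur protein (0.60), made 2 of 6 tested storage genes that rose, none falling (median 0.31).

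Transcripts of both nitrate reductases fell. NIA1, one of 2 nitrate reductases, had 714, 723 and 666 CPM in Col-0, 396, 403 and 392 in pp2-a5 and 849, 862 and 876 CPM in PP2-A5oe. NIA2, the other, had 6520, 6600 and 6270 CPM in Col-0, 4880, 5190 and 4930 in pp2-a5 and 6890, 6830 and 6370 CPM in PP2-A5oe. Both were lowest in the mutant in every library, at -0.82 ± 0.06 and -0.37 ± 0.05 log2 units against Col-0 and -1.12 ± 0.06 and -0.42 ± 0.05 against PP2-A5oe. The transporters NRT1.1, NRT1.5 and NRT1.7 rose by 0.52, 0.68 and 0.38, and GLN1;1, a cytosolic glutamine synthetase, had 34.9, 41.3 and 44.3 CPM in Col-0 and 71.7, 65.5 and 64.4 in pp2-a5. In all, 5 of 13 tested members rose and 2 fell (median 0.19), and NIR1, the next enzyme, was at -0.12 ± 0.06 and not called.

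Sulphur-deficiency genes were raised in pp2-a5, and more in the overexpressing line: 8 of 9 tested rose (median 0.61), none fell, and 8 were lower than in PP2-A5oe. SDI1, which restrains glucosinolate synthesis when sulphur is short, had 142, 135 and 157 CPM in Col-0, 229, 210 and 223 in pp2-a5 and 345, 356 and 338 CPM in PP2-A5oe. APR1, the sulphate reduction enzyme, and SHM7 rose by 0.80 and 0.78, and GGCT2;1, which recycles glutathione, by 0.89. The sulphate transporter SULTR2;1 was at 0.01 ± 0.06 and not called. The rise of APR2 was lost without Col-0 replicate 1 or 3 or pp2-a5 replicate 1 or 2 (adjusted p up to 0.149). Its call against PP2-A5oe was lost without PP2-A5oe replicate 3 or pp2-a5 replicate 3 (adjusted p up to 0.234). BGLU28 lost its rise without pp2-a5 replicate 1 (adjusted p = 0.0617).

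Touch and wound genes had the same order in a sharper form. In pp2-a5, 10 of 12 tested rose and none fell (median 0.67), but 11 of 12 were lower than in PP2-A5oe, where the median change from Col-0 was 2.98. ZAT10, a rapid zinc-finger repressor, had 24.8, 23.6 and 27 CPM in Col-0, 42.4, 36 and 37 in pp2-a5 and 346, 347 and 332 CPM in PP2-A5oe. CAF1a, a deadenylase of the wound response, had 15.9, 14.9 and 21.2 CPM in Col-0, 20.1, 21.1 and 18.4 in pp2-a5 and 292, 302 and 266 CPM in PP2-A5oe. The mutant thus stayed near Col-0 at CAF1a (0.20 ± 0.12, not called) while rising at WRKY40 (1.93), ERF11 (1.78) and SZF1 (1.1). The cold regulators CBF1, CBF2 and CBF3, at 1.23, 0.60 and 0.99, were not called against Col-0 and were lower than in PP2-A5oe, at -4.38 to -2.87 log2 units. Of 9 tested cold and dehydration genes 2 fell, KIN1 from 1.93 ± 0.140 to 0.265 ± 0.176 CPM and KIN2 by 0.41, a call lost without pp2-a5 replicate 2 (adjusted p = 0.0721), none rose (median 0.17), and 8 were lower than in PP2-A5oe.

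Among abscisic acid genes 4 of 5 tested rose (median 0.56): NCED3, the rate-limiting synthesis enzyme, from 21.3 ± 0.358 to 36.0 ± 4.72 CPM, and the phosphatases ABI1 and HAI1, which feed back on the signal, by 0.56 and 0.81. PP2CA lost its rise without Col-0 replicate 1 or pp2-a5 replicate 2 (adjusted p up to 0.0795). In PP2-A5oe against Col-0 all 5 were higher (median 0.78). The direct contrast had 2 lower and none higher in pp2-a5 (median -0.33). Heat shock genes gave 2 rises of 6 tested (median 0.25), HSP70 at 0.43 and HSP90.1 at 0.82. Ethylene genes gave 4 rises and 1 fall of 12 (median 0.19), among them the synthesis oxidase ACO4 (0.41) and the receptor ETR2 (0.86); the fall of EBF1, an F-box protein that degrades EIN3, by 0.23 was lost without Col-0 replicate 1 or 2 or pp2-a5 replicate 1 or 3 (adjusted p up to 0.122), and EIN3 and EIN2 were at 0.16 ± 0.06 and 0.16 ± 0.07 and not called.

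Senescence genes divided, with 6 higher and 2 lower of 10 tested (median 0.52). NAP, a NAC factor that drives leaf senescence, had 22.4, 17 and 23.3 CPM in Col-0, 80.7, 70.1 and 75.5 in pp2-a5 and 48.1, 52.7 and 56.6 CPM in PP2-A5oe. ORE1, another such factor, had 16.1, 15.2 and 14 CPM in Col-0, 30.9, 23.7 and 24.6 in pp2-a5 and 11.6, 11 and 8.8 CPM in PP2-A5oe. WRKY6 rose by 0.98, SAG29 and SAG21 fell, and chlorophyll breakdown genes moved little, with PAO at 0.23 , a call lost without Col-0 replicate 1 or 3 or pp2-a5 replicate 2 (adjusted p up to 0.0751), and SGR1 at 0.21 ± 0.11, not called. Clock genes showed 4 rises of 8 tested and no fall (median 0.54): RVE1, a morning factor, had 302, 317 and 261 CPM in Col-0 and 713, 758 and 748 in pp2-a5, PRR7 rose by 1.56 and GI by 1.87. Both lines were alike in direction at RVE1, with 728 ± 24.8 CPM in PP2-A5oe and a direct difference of 0.02 ± 0.06. CCA1 and TOC1, at -0.11 ± 0.09 and 0.13 ± 0.10, were not called.

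Photosynthesis genes fell by small steps. Of 26 tested nuclear members 20 fell and none rose, with a median of -0.22. Against PP2-A5oe 2 were lower, RBCS1B with its call lost without PP2-A5oe replicate 1 or 2 or pp2-a5 replicate 2 or 3 (adjusted p up to 0.0881) and RBCS2B without PP2-A5oe replicate 1 or 2 or pp2-a5 replicate 2 or 3 (adjusted p up to 0.241). LHCB6, a minor antenna protein, had 1740, 1760 and 1790 CPM in Col-0 and 1410, 1420 and 1370 in pp2-a5, and PSAH2, a photosystem I subunit, had 2940, 2800 and 3020 and 2420, 2170 and 2170 CPM. PSAE1 and PSAK fell by 0.38 and 0.41, PSAK with its call lost without Col-0 replicate 3 (adjusted p = 0.0514), and the Rubisco subunit gene RBCS1B by 0.29. The number of members that fell was between 13 and 21 over the alternatives tried, with 13 being the count without pp2-a5 replicate 3. Wall-loosening genes went the same way: 9 of 16 tested expansins and xyloglucan transferases fell and 1 rose (median -0.22), EXPA11 and XTH8 by 0.68 and 0.64, while XTH24 rose by 0.78. Falls of EXPA10, XTH4 and XTH6 lost their call when 1 of several libraries was left out (adjusted p up to 0.159). In PP2-A5oe against Col-0, 6 of the 16 were lower and 3 higher (median -0.18). The direct contrast had 3 lower and 1 higher in pp2-a5 (median -0.10). Among auxin response genes 2 were higher and 1 lower of 14 tested (median -0.03), a share of 21.4% that is close to the 20.8% of all tested loci; IAA1 and SAUR9 rose by 0.59 and 1.04 and SAUR20 fell by 0.37.

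Markers of other tissues were followed to see whether sampled material differed. Summed root hair markers were at 22.2 to 23.9 CPM in Col-0, 27.1 to 33.2 in pp2-a5 and 52.0 to 62.4 in PP2-A5oe, with 1 of 16 markers at 0 in Col-0 and none in pp2-a5; 4 of 8 tested rose and 1 fell (median 0.50). RHS14 had 0.161, 0.167 and 0 CPM in Col-0 and 0.971, 2.64 and 1.25 in pp2-a5, and the other calls, were lost without Col-0 replicate 1 or pp2-a5 replicate 1 (adjusted p up to 0.0882) for EXT13, without Col-0 replicate 1 or pp2-a5 replicate 1 or 2 (adjusted p up to 0.0868) for PRP3, without Col-0 replicate 2 or pp2-a5 replicate 1 (adjusted p up to 0.101) for RHS19 and without Col-0 replicate 1 or 3 or pp2-a5 replicate 1 or 3 (adjusted p up to 0.164) for LRX2. Root stele markers summed to 226 to 278 CPM in Col-0 and 293 to 304 in pp2-a5, with 1 of 10 at 0 in Col-0 and none in pp2-a5; 1 of 5 tested fell, the sodium transporter HKT1, by 1.17. Flower and pollen markers summed to 79.2 to 88.5 and 86.7 to 107 CPM, with 1 of 5 tested higher (SOC1, at 0.26) and none lower (median 0.21). Phloem and guard cell markers summed to 562 to 578 and 493 to 547 CPM, with 2 of 5 tested lower (SEOR1 and KAT1, at -0.21 and -0.32) and none higher (median -0.14). The call of SOC1 was lost without Col-0 replicate 2 or pp2-a5 replicate 1 or 2 (adjusted p up to 0.209), that of SEOR1 without Col-0 replicate 2 or pp2-a5 replicate 1, 2 or 3 (adjusted p up to 0.130) and that of KAT1 without Col-0 replicate 1 or pp2-a5 replicate 1 or 2 (adjusted p up to 0.100). The part of tissue composition in the other results was not tested.

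Of the PP2-A lectin relatives, 4 of 9 tested fell and none rose (median -0.20). PP2-A11 had 31.2, 31.9 and 37.1 CPM in Col-0 and 19.7, 22.1 and 22.5 in pp2-a5, and PP2-A8, at low counts, 3.54, 4.51 and 1.68 and 0.485, 0.825 and 0.78 CPM. PP2-A1, the abundant phloem lectin, and PP2-A9 were at -0.20 ± 0.07 and -0.76 ± 0.24, calls that were lost without Col-0 replicate 1 or 3 or pp2-a5 replicate 2 or 3 (adjusted p up to 0.102) and without Col-0 replicate 2 or pp2-a5 replicate 1 or 2 (adjusted p up to 0.0924). PP2-A6, the neighbour of PP2-A8 and like it a TIR protein, had 1.29, 3.34 and 1.3 CPM in Col-0 and 1.46, 1.81 and 1.25 in pp2-a5, groups that overlap, and was not called.

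Some loci set pp2-a5 apart from both reference groups. Those named here were called against Col-0 and, in the same direction, in the direct contrast with PP2-A5oe, without a call in PP2-A5oe against Col-0. Beside AT5G35935, PR1, PDF1.3, DLO1, PCR1 and AT3G48080, the higher ones were LUP5, an oxidosqualene cyclase gene, JRG21, a jasmonate-regulated oxygenase gene, the berberine-bridge locus AT1G26390 and the chitinase locus AT2G43570. JRG21 had 4.18, 5.85 and 5.78 CPM in Col-0, 16.8, 15.5 and 16.5 in pp2-a5 and 4.3, 3.96 and 3.97 CPM in PP2-A5oe. AT2G43570 had 12.5, 12 and 10.6 CPM in Col-0, 42.6, 35.6 and 36.3 in pp2-a5 and 13.2, 13.3 and 10.9 CPM in PP2-A5oe. In both, the reference groups shared a range and the mutant lay above it.

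The lower ones included 2 related methyltransferase loci on chromosome 5. AT5G38020 had 8.53, 8.85 and 8.2 CPM in Col-0, 2.59, 2.8 and 3.27 in pp2-a5 and 9.09, 7.37 and 7.93 CPM in PP2-A5oe. AT5G37990 had 21.9, 21.9 and 27.8 CPM in Col-0, 11.2, 11.9 and 9.98 in pp2-a5 and 28.1, 25.4 and 26.7 CPM in PP2-A5oe. CYP81D11, a cytochrome P450 of the detoxification response, had 88.3, 90.4 and 76.2 CPM in Col-0, 52.9, 49.5 and 44.4 in pp2-a5 and 88.3, 89.2 and 87.3 CPM in PP2-A5oe, so the fall was small but without overlap. HEI10, and MRD1, which is among the deepest falls at any level, on chromosome 1 from 19963267 to 19966952 and chromosome 1 from 19963047 to 19964712, overlap each other, and reads of the 2 cannot be told apart without strand. HEI10, known for its part in meiotic crossover, had 8.04, 7.18 and 6.34 CPM in Col-0, 2.43, 1.98 and 2.03 in pp2-a5 and 8.43, 9.17 and 10 CPM in PP2-A5oe, and MRD1 had 1.93, 2 and 2.05 CPM in Col-0, 0.162, 0 and 0 in pp2-a5 and 2.65, 2.16 and 2.41 CPM in PP2-A5oe. The uncharacterised loci AT3G15310, AT3G46880 and AT3G56275 and the leucine-rich repeat locus AT4G33970 fell by 0.80 to 1.2 log2 units.

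**Figure D5:**
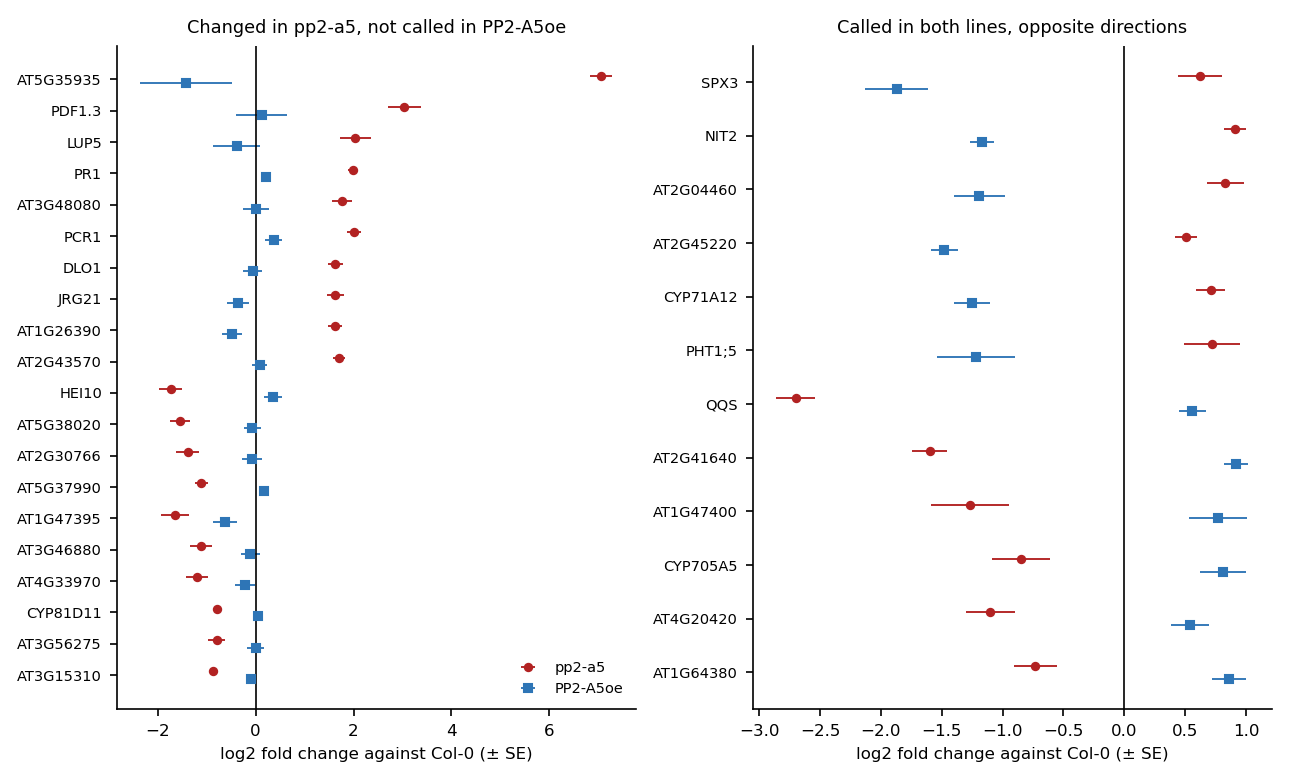
Log2 fold change against Col-0 (± SE, horizontal axis) of pp2-a5 (circles) and PP2-A5oe (squares) for loci named for a change in pp2-a5 alone (left) and for loci called in both lines in opposite directions (right). PR1 lies at 1.98 in pp2-a5 and 0.21 in PP2-A5oe, and NIT2 at 0.91 and -1.17.

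Other loci were called in both lines with opposite signs, so that the lines lay on either side of Col-0. NIT2, a nitrilase of indole metabolism, had 68.2, 59.8 and 79 CPM in Col-0, 139, 128 and 121 in pp2-a5 and 31.4, 31.3 and 29.1 CPM in PP2-A5oe. AT2G45220, a pectin methylesterase locus, had 46.2, 52 and 57 CPM in Col-0, 79.6, 70.1 and 70.6 in pp2-a5 and 15, 21.2 and 19.5 CPM in PP2-A5oe. With SPX3, CYP71A12, AT2G04460 and PHT1;5, these had the largest margins over PP2-A5oe, 1.94 to 2.49 log2 units, among such loci that were highest in the mutant and reached at least 5 CPM in the highest group. PHT1;5, a phosphate transporter of ageing leaves, was at 0.72 ± 0.23 against Col-0, a call lost without Col-0 replicate 1 or pp2-a5 replicate 1 or 3 (adjusted p up to 0.164).

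In the reverse order, lowest in pp2-a5 and highest in PP2-A5oe, stood QQS, the glycosyltransferase locus AT2G41640, the iron locus AT1G47400, CYP705A5, the locus AT4G20420 and the AP2-type locus AT1G64380. QQS had 35.7, 33.6 and 39.1 CPM in PP2-A5oe, against the Col-0 and pp2-a5 values given above, and the direct contrast was -3.26 ± 0.15 log2 units (adjusted p = 3.48e-18). AT2G41640 had 25.4, 24.1 and 20.7 CPM in Col-0, 8.25, 7.75 and 7.17 in pp2-a5 and 45.6, 45 and 43.1 CPM in PP2-A5oe. CYP705A5, of the triterpene gene cluster, was at -0.85 ± 0.24 against Col-0, a call lost without Col-0 replicate 3 or pp2-a5 replicate 3 (adjusted p up to 0.0582). For QQS, AT2G41640 and AT1G64380 all 9 libraries fell into the order pp2-a5, Col-0, PP2-A5oe without overlap between neighbouring groups.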

How the data were processed

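Polyadenylated RNA of 3 Col-0, 3 pp2-a5 and 3 PP2-A5oe rosette samples was sequenced. The authors deposited raw read counts per gene, and per the submitters' processing notes the build was TAIR 10; the aligner, the counting tool and the use of strand were not given in the sources used here. Rows with the same gene ID were summed, which turned 22449 rows into 22155 loci. Loci passed edgeR's filterByExpr (minimum count 10, minimum total 15) in 13975 cases, holding 99.76% of counts.

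Counts were scaled by the TMM method and fitted with edgeR 4.0.16 in R 4.3.3 (quasi-likelihood, all 9 libraries, 6 residual degrees of freedom, biological coefficient of variation 6.89%), with Benjamini-Hochberg adjustment over all tested loci at 0.05. Total counts of 5408847 to 6196722 set the precision: 3 counts over a group correspond to 0.170 CPM in Col-0 and 0.164 in pp2-a5, for counting error only. The procedure was tested on simulated data. An exact permutation test of 3 against 3 libraries cannot go below 0.1.

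Members, gene lists and the rule for named genes were chosen with earlier results of these data known. Named were up to 4 called members of a list with the smallest adjusted p (others with their list's counts), the 12 largest changes each way with at least 20 CPM and no overlap of replicates, the 10 each way that differed from both reference groups and the 6 each way with opposite signs in the lines (both from 5 CPM), and the 6 largest each way from 1 CPM. Promoter windows were read from RefSeq TAIR10.1, to which 21952 loci matched by locus ID. DESeq2 1.42.0, other scalings, no filter, only the 2 groups compared, a replicate block, leaving out each library, and, chosen after seeing the data, only loci with 1 annotated transcript or with no overlapping gene were the alternatives. The PP2-A5 locus was not analysed here.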

Additional observations from a re-analysis of the deposited data

How the results depend on the processing

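The count of loci called in pp2-a5 against Col-0 was 2902, and 2096 with DESeq2, 2901 with relative log expression scaling, 3022 without the filter and 2711 with only the 2 groups compared. Leaving out 1 library gave 2255 to 3145. By construction fewer passed a stricter threshold: 1887 at an adjusted p under 0.01 and 471 at a change of at least 2-fold. Upper-quartile scaling called 3089 loci, with 1536 up and 1553 down, which moves higher calls from 59.2% to 49.7% of the total; in PP2-A5oe against Col-0 the main split was 2027 to 1469 (58.0% higher) and became 1769 to 2069 (46.1%). The direct contrast of the lines gave 1769 calls, 1257 with DESeq2 and 1342 to 1581 without 1 library. Among loci with 1 annotated transcript 2126 of 9457 were called, and among those with no overlapping gene 2127 of 9753, 2 alternatives chosen after seeing the data. Of 290 list members and named genes called against Col-0, 237 kept their call in every alternative run, 53 lost it in at least 1, and none changed sign. Most list counts moved by less than 1.5 times under the alternatives planned; those over 2 members that moved further were photosynthesis genes that fell (20, down to 13), PP2-A relatives that fell (4, down to 2) and root hair markers that rose (4, down to 1). Calls on lists with 2 or fewer members in a direction were as few as 0 for phloem and guard cell markers and 1 for the N-hydroxypipecolate pathway, while cold genes reached 2 rises and clock genes 2 falls from 0.

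Same-numbered samples of pp2-a5 and Col-0 did not deviate together (correlations of -0.0503, 0.0618 and -0.0376). No shared effect of the number was thus visible, which cannot tell whether the samples were grown or handled in pairs. With the replicate block 2575 loci were called in pp2-a5 against Col-0, 1571 in the direct contrast and 3185 in PP2-A5oe against Col-0, and 240 list members against 251 without the block.

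The filter on low counts left 13975 of 22155 loci in the tests, and among protein-coding loci the share tested fell from 72.3% with 1 annotated transcript to 40.4% with 5 or more; the cause was not tested.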
